A study of Homo sapiens with 48 samples.

Results

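Transcripts of the E2F transcription factors and of the retinoblastoma (RB) family were followed in uveal melanoma cells as 10 genes, E2F1, E2F2, E2F3, E2F4, E2F5, E2F7, E2F8, RB1, RBL1 and RBL2, of 58870 genes counted in 48 RNA-seq libraries. The genes were taken by symbol as members of these families. The lines were 92-1, MEL202 and MP41, established uveal melanoma cell lines, each labelled WT in genotype. Cells of each line received FHT-1015, a dual inhibitor of SMARCA4 and SMARCA2, the ATPases of BAF chromatin remodelling complexes, or DMSO as the negative control, for 4 h or 24 h. In a separate experiment 92-1 cells received IDE196, an inhibitor of protein kinase C (PKC), for 4 h or 24 h, beside a DMSO set of its own. There were 16 groups of 3 replicates labelled as biological, and doses were not among the labels used here. The labels do not say whether replicates came from separate cultures, so p-values measure the spread between these samples. In bulk RNA, fewer cells expressing a gene and less of its RNA per cell cannot be told apart.

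E2F factors bind promoters of genes for DNA replication and cell division. The pocket proteins, pRB from RB1, p107 from RBL1 and p130 from RBL2, bind E2Fs and hold those promoters silent until cyclin-dependent kinases phosphorylate them. E2F1, E2F2 and E2F3 are known mainly as activators bound by pRB, E2F4 and E2F5 mainly as repressors working with p107 and p130, and E2F7 and E2F8 as repressors that bind DNA without a DP partner and without a pocket protein. p130 or p107 with E2F4 or E2F5, a DP protein and the MuvB core form the DREAM complex of resting cells. Several of these genes are E2F targets themselves.

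The stretch of 100 bases upstream of the RefSeq start (GRCh38.p14) is printed for 4 genes whose promoters hold a match to an E2F letter pattern and, for contrast, for E2F7 and E2F4, which hold none. The patterns searched on both strands of 250 bases before to 50 bases after the start were TTTGGCGC, TTTCCCGC, TTTCGCGC and TTTGCCGC, and capitals mark the matches.
E2F1 (chr20:33686386-33686485, minus strand): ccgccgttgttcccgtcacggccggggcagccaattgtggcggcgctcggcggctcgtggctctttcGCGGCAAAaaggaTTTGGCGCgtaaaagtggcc
E2F2 (chr1:23531234-23531333, minus strand): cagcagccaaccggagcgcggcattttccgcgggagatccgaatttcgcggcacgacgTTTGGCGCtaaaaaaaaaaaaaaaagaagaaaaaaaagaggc
E2F3 (chr6:20401779-20401878, plus strand): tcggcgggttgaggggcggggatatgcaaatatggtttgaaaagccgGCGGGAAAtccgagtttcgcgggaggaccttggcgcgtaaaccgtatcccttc
RBL1 (chr20:37095998-37096097, minus strand): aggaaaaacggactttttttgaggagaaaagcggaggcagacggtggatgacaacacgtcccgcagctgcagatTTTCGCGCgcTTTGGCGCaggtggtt
E2F7 (chr12:77065570-77065669, minus strand): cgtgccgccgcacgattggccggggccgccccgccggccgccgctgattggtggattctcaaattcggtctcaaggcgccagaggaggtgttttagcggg
E2F4 (chr16:67192055-67192154, plus strand): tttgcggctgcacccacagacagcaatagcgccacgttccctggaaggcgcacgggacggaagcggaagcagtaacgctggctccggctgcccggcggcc
E2F1 holds 2 matches, starting 33 bases upstream on the minus strand of the gene and 20 bases upstream on its plus strand. RBL1 holds 2 on its plus strand, starting 26 and 16 bases upstream. E2F2 holds 1 at 42 bases upstream and E2F3 holds 1 at 53 bases upstream of the first of its 2 listed starts. Of the 10 genes 8 were in the RefSeq promoter table and 4 of those 8 held a match, against 3.31% of 35116 promoters of that length. The RB1 window in the table lies inside the gene, far from the gene start, so it shows nothing of the main RB1 promoter. A match of letters is a description of the sequence and not evidence of binding.

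The libraries held 11394088 to 32317711 reads in genes, and levels are given as CPM, read counts scaled to a common library size over the 48 libraries. The melanocyte markers MITF, SOX10, PMEL, MLANA, TYR, TYRP1 and DCT were detected in every group, with a summed level of 7880.1 to 23059.6 CPM in the DMSO libraries, which fits the labelled cell type, and 7 markers of leukocytes, epithelium, endothelium and fibroblasts summed to 2.67 to 40.1 CPM, with 0 to 2 of them at 0 in a group. After 24 h of FHT-1015 their sum was 31.8 to 40.1 CPM against 6.11 to 7.4 in MEL202, 11.2 to 12.9 against 3.49 to 4.05 in 92-1 and 19.7 to 27.9 against 17.5 to 39.7 in MP41, and it was 17.9 to 32.4 against 8.53 to 18.2 with IDE196. The melanocyte sum was lower after 24 h of FHT-1015, at 4854.3 to 5320.1 CPM against 18993.8 to 23059.6 in 92-1, and not after IDE196, at 18524.6 to 20885.1 against 16799.3 to 19434.6. The part of either marker list in the results below was not tested. In 4 libraries, MEL202 DMSO 4 h replicate 1, MEL202 FHT-1015 4 h replicate 2 and MP41 DMSO 24 h replicates 1 and 2, GC-poor genes read low. Genes of at most 42.2% GC stood at -1.74 to -0.77 log2 units against genes of at least 56.2% GC there, relative to the mean of all libraries, and at -0.28 to 0.62 in the other 44. RB1, E2F5 and RBL1 are GC-poor transcripts (37.3%, 38.3% and 40.0% GC), and E2F1, E2F4 and E2F2 are GC-rich (62.5%, 59.3% and 57.5%). RB1 had its 4 lowest values of the 48 in exactly these libraries, so the members' MP41 log2 fold changes at 24 h are given with and without them, while levels and shares hold all libraries. Leaving them out keeps 1 MP41 DMSO library at 24 h, replicate 3, and the p-values of that setting take the spread of the other groups and assume that replicate 3 varies like them.

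In DMSO at 24 h, E2F3 was the most abundant member per length in 92-1 and MEL202, and E2F1 in MP41, where 2 of the 3 libraries are low in GC-poor genes. In MP41 DMSO at 4 h, without such a library, E2F3 and E2F1 stood level at 25.6 ± 0.707 and 25.2 ± 1.93 CPM per kb. Scaled to exon length, E2F3 stood at 37.5 ± 2.50 CPM per kb in 92-1, E2F1 at 28.9 ± 1.45, E2F4 at 24.6 ± 0.406 and RB1 at 7.67 ± 1.11 (mean ± SD, n = 3). E2F7, E2F5, RBL2, RBL1 and E2F2 followed between 5.56 and 3.97 CPM per kb, with mean ± SD ranges that overlapped between neighbours, and E2F8 was last at 1.02 ± 0.335. The order in MEL202 was the same for the first 4 genes, from E2F3 at 30.3 ± 1.44 to RB1 at 11.2 ± 1.43, and the mean ± SD ranges of E2F1 (18.3 ± 1.52) and E2F4 (14.3 ± 3.02) overlapped, as did those of E2F4 and RB1. In MP41 E2F2 reached 15.4 ± 4.55 CPM per kb, beside 3.97 ± 0.280 in 92-1 and 4.25 ± 0.950 in MEL202, and E2F8 reached 3.24 ± 0.336. E2F2 stood lower, at 10.4 ± 0.911, in MP41 DMSO at 4 h, without a library low in GC-poor genes. RBL2 was the lowest member in MP41, at 1.79 ± 0.0212 CPM per kb against 4.79 ± 0.434 in 92-1 and 5.05 ± 1.43 in MEL202.

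The DMSO level at 24 h differed among the 3 lines for 8 of 10 members (edgeR quasi-likelihood test, adjusted p under 0.05), beside 68.7% of all genes tested. The largest F statistics were those of E2F2 (adjusted p = 2.08e-09), E2F8 (2.04e-08), E2F4 (1.64e-07) and RBL2 (1.37e-06). E2F4 stood at 88.5, 86.6 and 89.4 CPM in 92-1, at 61.3, 39.8 and 52.3 in MEL202 and at 41.2, 43.5 and 33.8 in MP41, so these 92-1 libraries lay above the other lines. The DMSO libraries of 92-1 in the IDE196 experiment, which are outside the test among lines, held 55.4, 53.5 and 68.0 CPM. E2F5 (adjusted p = 0.151) and RBL1 (0.156) were not called, and RB1 was near the threshold (0.0438), its call lost in 16 of 36 fits that left out 1 library. Without the 4 libraries low in GC-poor genes, E2F5 was called (adjusted p = 0.000327) and E2F7 was not (0.182, against 0.0130 with them).

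**Figure D1:**
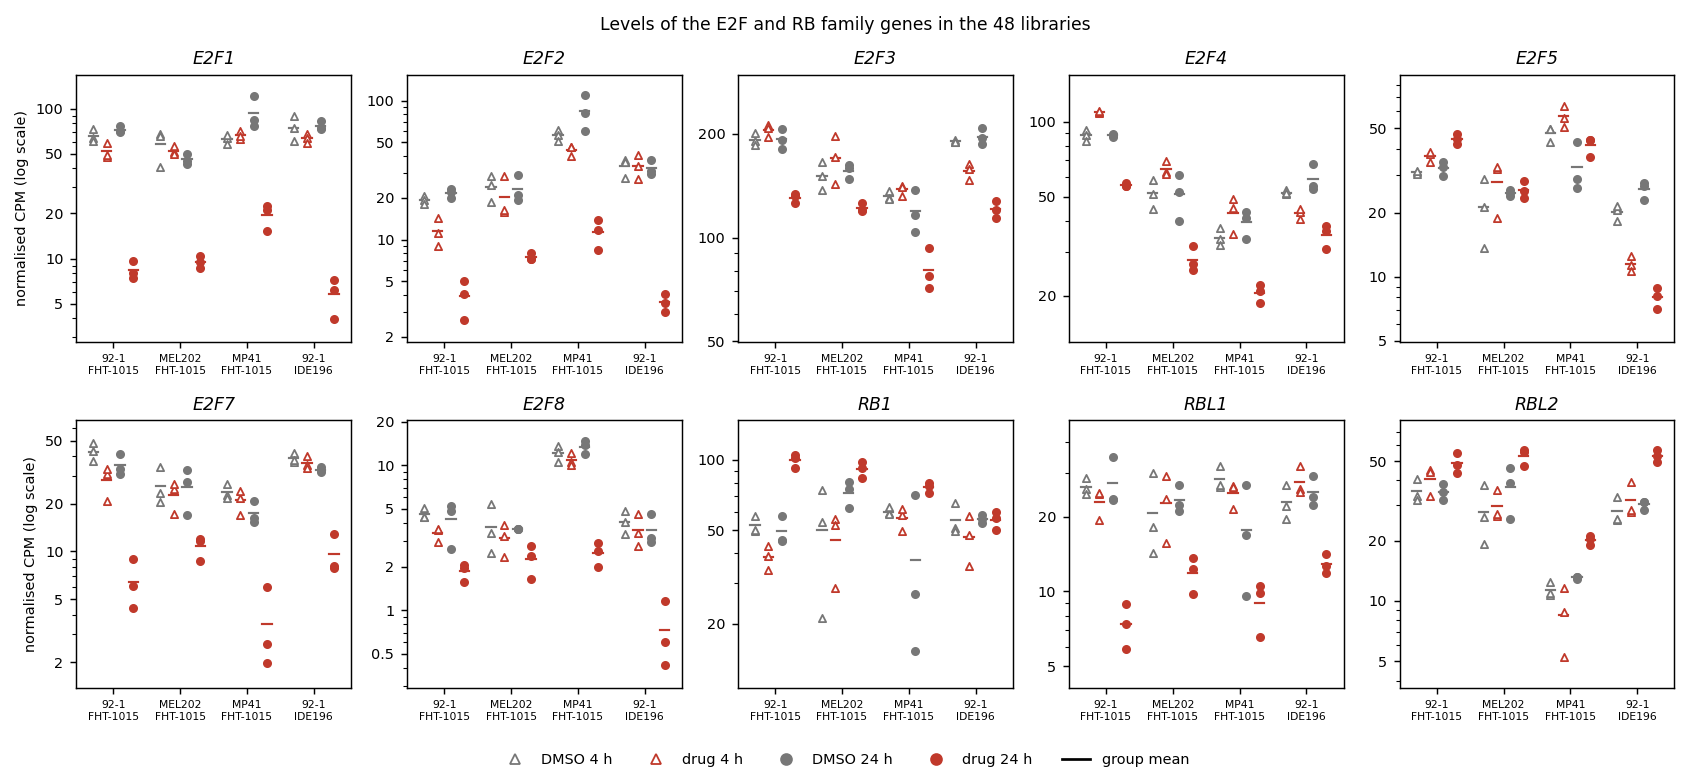
Normalised CPM (log scale) of each member in the 48 libraries, 3 points per group and a bar at the group mean, for the 4 experiments. Triangles are 4 h, circles 24 h, grey DMSO and red drug. E2F1 and E2F2 at 24 h lie below DMSO in every experiment, and the low RB1 points in MEL202 DMSO 4 h and MP41 DMSO 24 h belong to libraries low in GC-poor genes.

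After 24 h of FHT-1015, 7 members fell and 3 rose in 92-1 of 10 tested, where 60.6% of all 15685 genes were called (29.2% higher, 31.4% lower). In MEL202 5 fell and 0 rose, with 18.8% of genes called (8.69% higher, 10.1% lower). In MP41 7 fell and RBL2 rose, with 36.1% called (17.4% higher, 18.7% lower). With IDE196 in 92-1, 8 fell and RBL2 rose, with 58.1% called (28.7% higher, 29.4% lower). E2F1, E2F2, E2F4, E2F7 and RBL1 fell in each of the 4 comparisons. The members' median log2 fold change was -0.95 in 92-1, -0.76 in MEL202, -0.91 in MP41 and -1.37 with IDE196, beside -0.001, -0.006, 0.065 and 0.029 over all genes tested. A gene was called where its p, adjusted by Benjamini and Hochberg over all genes of the comparison, was under 0.05.

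At 4 h fewer members had changed. In 92-1 with FHT-1015, E2F1, E2F2, E2F7 and RB1 fell and E2F4 rose, beside 29.5% of all genes (12.9% higher, 16.7% lower). With IDE196, E2F3 and E2F5 fell, beside 16.2% (6.89% higher, 9.30% lower). No member was called at 4 h in MEL202 or MP41 by edgeR, where 0.679% and 0.225% of genes were called, and 0 members of either line had an unadjusted p under 0.05. DESeq2 and limma called 0 members there as well. The 24 h and 4 h effects were told apart by the fit for 7 of 10 members in 92-1 with FHT-1015 (45.5% of all genes), 2 in MEL202 (6.89%), 6 in MP41 (18.6%) and 9 with IDE196 (30.7%), E2F1 and E2F4 in each of the 4.

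**Figure D2:**
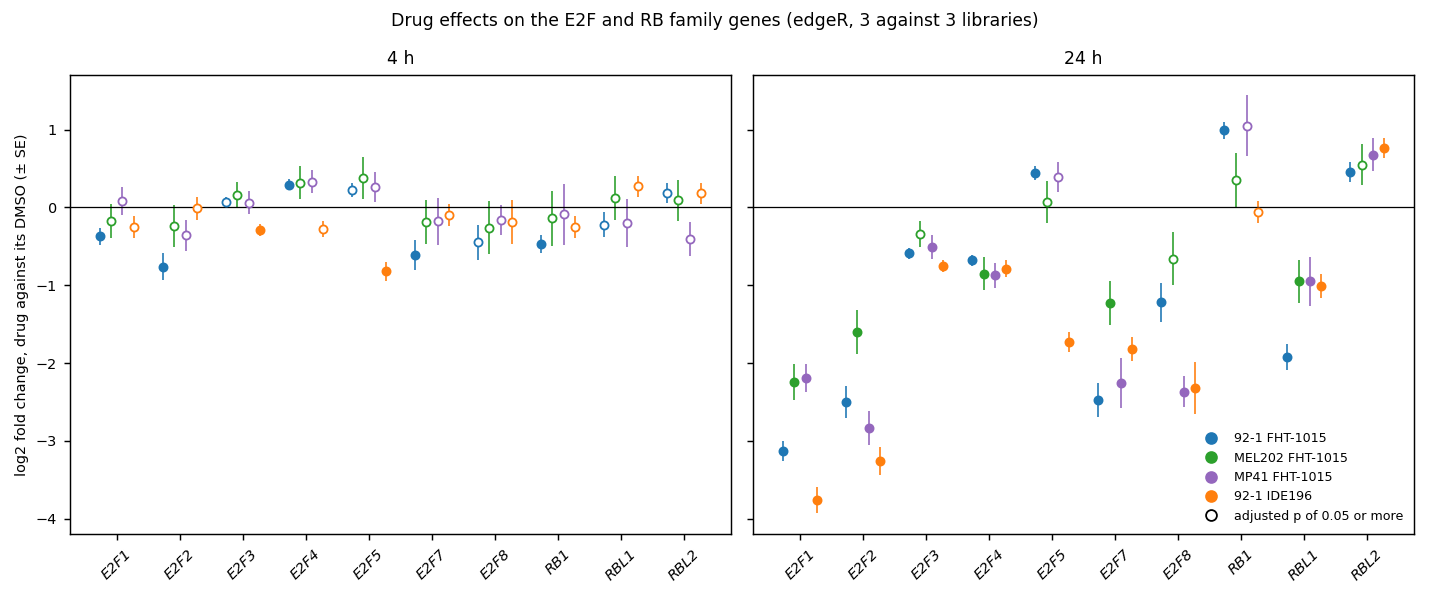
Log2 fold change of each drug against its own DMSO, ± SE, for the 10 members at 4 h (left) and 24 h (right), with filled points at an adjusted p under 0.05 (edgeR). At 24 h the falls of E2F1 reach from -3.76 to -2.19, while E2F5 in 92-1 lies at 0.44 with FHT-1015 and at -1.73 with IDE196.

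E2F1 (chromosome 20, 33675683 to 33686404, minus strand, 7 merged exons, GRCh38) fell at 24 h in every experiment, by the widest margin of any member in 92-1. In 92-1 the DMSO libraries held 76.4, 69.5 and 71.3 CPM and the FHT-1015 libraries 9.68, 8.06 and 7.42. The groups did not overlap, and the log2 fold change was -3.13 ± 0.13 (SE), a fitted level of 0.114 of DMSO (edgeR adjusted p = 1.99e-11). MEL202 went from 50.1, 44.7 and 42.8 to 9.56, 10.4 and 8.66 CPM (log2 fold change -2.24 ± 0.23, adjusted p = 2.42e-05). In MP41 the DMSO values of 84.1, 120.6 and 76.8 CPM stood against 22.4, 15.4 and 21.0 after FHT-1015 (-2.19 ± 0.18, adjusted p = 1.75e-06). Without MP41 DMSO replicates 1 and 2 that value was -1.99. With IDE196, 92-1 cells went from 82.5, 74.2 and 72.8 to 6.2, 7.2 and 3.99 CPM, again with no overlap (-3.76 ± 0.17, adjusted p = 2.32e-11). At 4 h E2F1 was already lower in 92-1 with FHT-1015, at 47.6, 58.7 and 49.3 against 63.6, 72.9 and 61.1 CPM (-0.37 ± 0.11, adjusted p = 0.0177), a call that was lost without DMSO replicate 2 or without FHT-1015 replicate 1. The 4 h values with IDE196 were 67.9, 63.3 and 59.0 against 74.1, 89.3 and 61.1 CPM, which overlap (-0.25 ± 0.14, adjusted p = 0.286).

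E2F2 (chromosome 1, 23506430 to 23531220, minus strand, 7 merged exons) fell at 24 h in the same 4 comparisons. The 92-1 DMSO libraries held 22.0, 20 and 23.0 CPM and the FHT-1015 libraries 5.02, 4.07 and 2.63 (-2.50 ± 0.20, adjusted p = 3.77e-08). MEL202 went from 19.3, 29.1 and 21.1 to 7.29, 7.3 and 8.01 CPM (-1.60 ± 0.28, adjusted p = 0.00141). No drug library at 24 h reached its DMSO group. MP41, the line with the most E2F2, went from 81.8, 110.0 and 60.6 to 11.7, 8.36 and 13.9 CPM (-2.83 ± 0.22, adjusted p = 7.58e-07, and -2.44 without the libraries low in GC-poor genes). With IDE196 the values were 37.4, 31.0 and 29.4 against 3.03, 4.05 and 3.51 CPM (-3.26 ± 0.18, adjusted p = 1.83e-10). At 4 h it was called only in 92-1 with FHT-1015, at 11.1, 14.2 and 9.04 against 20.5, 19.4 and 17.9 CPM (-0.76 ± 0.17, adjusted p = 0.00376).

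E2F3 (chromosome 6, 20401906 to 20493715, plus strand, 8 merged exons) moved far less than E2F1 and E2F2. In 92-1 it went from 206.9, 181.2 and 192.2 to 126.0, 131.8 and 133.7 CPM with FHT-1015 (-0.59 ± 0.07, adjusted p = 3.65e-06), and from 207.2, 186.7 and 194.1 to 128.1, 120.6 and 113.8 with IDE196 (-0.75 ± 0.08, adjusted p = 4.18e-07). MP41 gave -0.51 ± 0.15 (adjusted p = 0.0178), a call lost without FHT-1015 24 h replicate 2 and with only the 6 samples compared. Without the libraries low in GC-poor genes the MP41 value was -0.78 (adjusted p = 0.000586). At 4 h of IDE196 E2F3 stood at 163.4, 158.2 and 146.4 against 191.2, 189.5 and 189.7 CPM (-0.29 ± 0.08, adjusted p = 0.017), a call lost without IDE196 replicate 3. In MEL202 the values of 148.0, 162.2 and 158.7 against 119.7, 125.8 and 120.4 CPM did not overlap, but the fit with that line's wider spread did not call them (-0.34 ± 0.17, adjusted p = 0.202). It was called there without the libraries low in GC-poor genes (adjusted p = 0.0394). Among the 7 E2F genes per length, E2F1 made up 27 ± 0.234% of transcripts in 92-1 DMSO and 6.22 ± 0.898% after FHT-1015 (SD, n = 3), while E2F3 went from 35 ± 0.814% to 46.9 ± 1.26%. With IDE196 the E2F1 share went from 30.2 ± 1.30% to 5.84 ± 1.27% and the E2F3 share from 37.4 ± 0.443% to 59.7 ± 2.56%. In both cases the drug and DMSO shares lay further apart than their spread.

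E2F4 (chromosome 16, 67192169 to 67198918, plus strand, 6 merged exons) was higher at 4 h and lower at 24 h in 92-1 with FHT-1015. At 4 h it stood at 108.7, 109.7 and 110.6 CPM against 92.3, 88.4 and 83.9 (0.29 ± 0.07, adjusted p = 0.00561). At 24 h it stood at 55.0, 57.0 and 55.5 against 88.5, 86.6 and 89.4 (-0.68 ± 0.07, adjusted p = 8.35e-07). The effect at 24 h minus that at 4 h was -0.97 ± 0.10 (adjusted p = 1.91e-06). The 4 h values in MEL202 (0.32 ± 0.21) and MP41 (0.33 ± 0.15) were of like size and were not called (adjusted p = 0.774 and 0.868). At 24 h E2F4 fell by 0.85 ± 0.21 on the log2 scale in MEL202 (adjusted p = 0.0117), by 0.87 ± 0.16 in MP41 (adjusted p = 0.000719, and -0.72 without the libraries low in GC-poor genes) and by 0.79 ± 0.11 with IDE196 (adjusted p = 5.40e-06). The MEL202 call was lost without DMSO 24 h replicate 1, FHT-1015 24 h replicate 1 or FHT-1015 24 h replicate 3. The IDE196 group was not above DMSO at 4 h, at 40.8, 43.4 and 44.8 against 51.2, 53.2 and 51.7 CPM (-0.28 ± 0.10, adjusted p = 0.0792).

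E2F5 (chromosome 8, 85177225 to 85217158, plus strand, 9 merged exons) went in opposite directions with the 2 drugs in 92-1. With FHT-1015 it rose at 24 h from 29.7, 32.9 and 34.6 to 42.1, 44.6 and 46.8 CPM (0.44 ± 0.09, adjusted p = 0.000833). With IDE196 it fell from 23.0, 27.5 and 26.8 to 8.16, 8.83 and 7.08 CPM (-1.73 ± 0.13, adjusted p = 3.67e-09). It had fallen by 4 h of IDE196, to 11.4, 10.6 and 12.5 CPM against 20.7, 21.6 and 18.3 (-0.82 ± 0.12, adjusted p = 0.000135), and none of these pairs of groups overlapped. In MEL202 the 24 h values of 24.1, 24.8 and 25.5 against 23.5, 28.2 and 25.4 CPM overlapped (0.07 ± 0.27, adjusted p = 0.894). In MP41 the values were 28.8, 26.2 and 43.1 in DMSO and 36.7, 44.0 and 43.9 with FHT-1015 (0.39 ± 0.19, adjusted p = 0.132), and the direction rested on the libraries low in GC-poor genes (-0.06 without them). E2F5 shares 18.59% of its exon bases with AC011773.1 and C8orf59 on the other strand, reads there were counted as ambiguous, and the library kit does not mark strand. The sum of the stranded columns holds 2.84 times as many reads for E2F5, because it counts reads of the shared bases for E2F5. Without strand marks those reads cannot be told from reads of AC011773.1 and C8orf59. With that sum the 24 h values were 0.24 with FHT-1015 (adjusted p = 0.0116) and -0.81 with IDE196 (adjusted p = 1.09e-06). The difference between the drugs was then 1.05, beside 1.22 for E2F8 and 1.04 for RB1 on the same sum.

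E2F7 (chromosome 12, 77021247 to 77065580, minus strand, 14 merged exons) and E2F8 (chromosome 11, 19224063 to 19241620, minus strand, 14 merged exons), the atypical repressors, fell together at 24 h in 3 of the 4 comparisons. E2F7 in 92-1 went from 41.1, 33.2 and 30.9 to 8.92, 6.03 and 4.43 CPM with FHT-1015 (-2.47 ± 0.22, adjusted p = 1.23e-07). With IDE196 it went from 34.1, 31.6 and 32.6 to 7.88, 12.9 and 8.09 CPM (-1.82 ± 0.15, adjusted p = 1.66e-08). Both pairs of groups were apart. In MEL202 E2F7 changed by -1.23 ± 0.28 (adjusted p = 0.00782) and in MP41 by -2.26 ± 0.32 (adjusted p = 0.000132, and -2.55 without the libraries low in GC-poor genes). At 4 h the FHT-1015 libraries of 92-1 held 31.0, 33.0 and 20.9 CPM against 48, 42.9 and 37.0 in DMSO (-0.61 ± 0.19, adjusted p = 0.0239). That call was lost without DMSO replicate 1, without DMSO replicate 2 and without FHT-1015 replicate 3.

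E2F8 was the least abundant member per length in 92-1 and MEL202 DMSO at 24 h. MP41 DMSO libraries held 13.8, 11.9 and 14.6 CPM at 24 h and the FHT-1015 libraries 2.0, 2.57 and 2.9 (-2.37 ± 0.20, adjusted p = 1.75e-06, and -2.54 without the libraries low in GC-poor genes). In 92-1 FHT-1015 gave 1.95, 2.04 and 1.56 against 4.82, 5.22 and 2.64 CPM (-1.22 ± 0.25, adjusted p = 0.000582), and IDE196 0.606, 1.16 and 0.417 against 4.62, 3.13 and 2.94 (-2.32 ± 0.34, adjusted p = 1.47e-05). MEL202 had 2.79, 2.38 and 1.63 against 3.63, 3.66 and 3.61 CPM, which do not overlap but were not called (-0.66 ± 0.34, adjusted p = 0.203).

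RB1 (chromosome 13, 48303726 to 48599436, plus strand, 30 merged exons), the gene of pRB, rose at 24 h of FHT-1015 in 92-1. The DMSO libraries held 57.8, 45.3 and 45.4 CPM and the FHT-1015 libraries 101.4, 91.9 and 105.2, well apart (0.99 ± 0.11, adjusted p = 1.29e-06). At 4 h it had been lower, at 43.0, 38.9 and 33.8 against 49.7, 50.4 and 57.7 CPM (-0.47 ± 0.11, adjusted p = 0.00433). The 24 h effect minus the 4 h effect was 1.46 ± 0.15 (adjusted p = 2.40e-06). IDE196 gave no call at 24 h, with 60.2, 56.6 and 50.1 against 58.0, 56.2 and 53.8 CPM (-0.06 ± 0.14, adjusted p = 0.755). In MEL202 the FHT-1015 values of 97.5, 83.9 and 92.5 CPM lay above the DMSO values of 62.3, 80.3 and 74.8, without a call (0.35 ± 0.35, adjusted p = 0.545). In MP41 the FHT-1015 libraries held 77.3, 72.0 and 79.9 CPM and the DMSO libraries 26.9, 15.3 and 70.8 (1.05 ± 0.39, adjusted p = 0.0512). Replicate 3 was close to the drug libraries and to the MP41 DMSO libraries of 4 h (59.1, 58.5 and 62.7 CPM), while replicates 1 and 2 are the libraries low in GC-poor genes. Without those 2 libraries, against replicate 3 alone and with the spread taken from the other groups, the MP41 value was 0.10 (adjusted p = 0.657). Without DMSO replicate 3 it was 1.87 and was called (adjusted p = 1.91e-06). With all libraries kept it was also called with offsets for GC content and length (0.72, adjusted p = 0.00286), with no filter on low counts (1.03, adjusted p = 3.66e-06), with limma-voom (1.51, adjusted p = 3.52e-08), with DESeq2 (1.04, adjusted p = 0.0214) and with the replicate number as a block (1.36, adjusted p = 0.0106). It was not called with RLE normalisation, on the stranded sum or with only the 6 samples compared (adjusted p = 0.0539, 0.0522 and 0.156).

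RBL1 (chromosome 20, 36996349 to 37095995, minus strand, 23 merged exons), the gene of p107, fell at 24 h in every experiment. In 92-1 it went from 34.8, 23.5 and 23.4 to 7.39, 8.88 and 5.87 CPM with FHT-1015 (-1.92 ± 0.17, adjusted p = 1.55e-07). With IDE196 it went from 29.2, 24.0 and 22.2 to 11.9, 12.7 and 14.1 CPM (-1.01 ± 0.15, adjusted p = 1.30e-05). MEL202 went from 21.0, 26.7 and 22.2 to 13.6, 9.76 and 12.3 CPM (-0.95 ± 0.28, adjusted p = 0.0297). These groups did not overlap, but the MEL202 call was lost when any 1 of its 6 libraries was left out and with the replicate number as a block (adjusted p = 0.0776). In MP41 the DMSO values of 16.8, 9.62 and 26.8 CPM overlapped those with FHT-1015, 9.88, 6.53 and 10.5 (-0.95 ± 0.31, adjusted p = 0.0296). Without the libraries low in GC-poor genes, with 1 DMSO library left, the MP41 value was -1.60 (adjusted p = 4.17e-05). The MP41 call was lost without DMSO 24 h replicate 3, where the value was -0.56 (adjusted p = 0.0641), without DMSO 24 h replicate 1, FHT-1015 24 h replicate 1 or FHT-1015 24 h replicate 2, and with only the 6 samples compared (adjusted p = 0.0889).

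RBL2 (chromosome 16, 53433977 to 53491649, plus strand, 26 merged exons), the gene of p130, was higher at 24 h with both drugs in 92-1. With IDE196 it rose from 31.4, 28.5 and 31.3 to 53.3, 49.5 and 57.1 CPM (0.76 ± 0.13, adjusted p = 7.32e-05). With FHT-1015 it rose from 31.8, 38.2 and 35.1 to 43.7, 48 and 55.1 CPM (0.46 ± 0.13, adjusted p = 0.00714). In MP41 it rose from 13.2, 13.2 and 12.9 to 20.3, 19.0 and 21.2 CPM (0.68 ± 0.21, adjusted p = 0.0241). In each of these the drug libraries lay above DMSO, and in MEL202 the values of 55.7, 47.3 and 56.6 against 25.7, 46.4 and 38.9 CPM also did, without a call (0.55 ± 0.26, adjusted p = 0.172). The MEL202 value was called in 3 of 9 alternatives, limma-voom, GC and length offsets and only the 6 samples compared. The MP41 call was lost without DMSO 24 h replicate 1, FHT-1015 24 h replicate 1 or FHT-1015 24 h replicate 3, and with only the 6 samples compared (0.62, adjusted p = 0.0541). Without the libraries low in GC-poor genes, with 1 DMSO library left, the value was 0.63 and was not called (adjusted p = 0.0986). RBL2 shares 18.18% of its exon bases with AKTIP and AC007342.6 on the other strand, where reads were counted as ambiguous, and its 4 values at 24 h were 0.45, 0.50, 0.81 and 0.76 in 92-1, MEL202, MP41 and with IDE196 on the sum of the stranded columns. For RBL2 too that sum counts reads of the shared bases.

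As shares of the 3 pocket protein transcripts per length, RBL1 dropped at 24 h in each experiment. It made up 26.6 ± 3.40% in 92-1 DMSO and 5.36 ± 1.36% with FHT-1015, 19.5 ± 1.51% and 8.49 ± 0.684% in MEL202, and 28.7 ± 3.06% and 9.27 ± 1.63% in MP41 (SD, n = 3). With IDE196 it went from 24.7 ± 2.13% to 12 ± 1.24%. No drug library reached a DMSO library of its experiment. The share that grew differed between the drugs in 92-1. With FHT-1015 the RB1 share went from 44.9 ± 1.70% to 66.1 ± 2.34% and the RBL2 share was 28.5 ± 5.06% and 28.6 ± 2.25%. With IDE196 the RBL2 share went from 24.4 ± 1.53% to 40.3 ± 2.81% and the RB1 share was 51.0 ± 1.46% and 47.7 ± 3.82%.

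**Figure D3:**
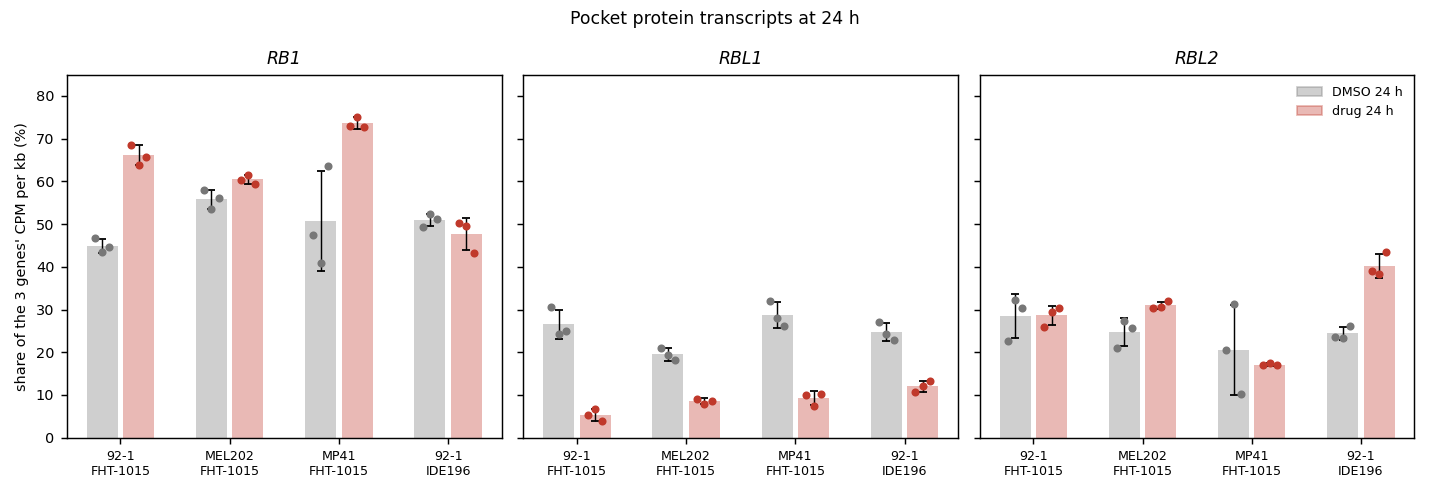
Share of RB1, RBL1 and RBL2 in the summed CPM per kb of the 3 genes at 24 h, as bars at the mean with SD error bars and points for the 3 libraries of each group. RBL1 falls in every experiment, from 26.6% to 5.36% in 92-1 with FHT-1015, and the RB1 share of MP41 DMSO is 47.4% and 40.9% in the libraries low in GC-poor genes and 63.6% in replicate 3.

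The 2 drugs were compared in 92-1 as each effect against its own DMSO, in a fit of the 24 libraries of that line. At 24 h the effects differed for 5 of 10 members, beside 33.0% of all genes (15.9% higher, 17.1% lower under FHT-1015). E2F5 was 2.16 ± 0.15 log2 units higher under FHT-1015 than under IDE196 relative to DMSO (edgeR adjusted p = 1.08e-11, and 1.05 on the sum of the stranded columns), and RB1 1.04 ± 0.19 higher (adjusted p = 8.62e-05). RBL1 fell more with FHT-1015, by a difference of -0.91 ± 0.24 (adjusted p = 0.00366). E2F1 (0.62 ± 0.22, adjusted p = 0.0328) and E2F2 (0.75 ± 0.29, adjusted p = 0.0448) fell less with FHT-1015. These last calls were fragile. They were lost with limma-voom, and leaving out 1 library in turn ended that of E2F1 in 4 of 24 fits (DMSO 24 h replicate 2, FHT-1015 24 h replicate 1, and in the IDE196 experiment DMSO 24 h replicate 4 and IDE196 24 h replicate 3) and that of E2F2 in 7 (DMSO 24 h replicates 1 and 2, FHT-1015 24 h replicates 1 and 2, and in the IDE196 experiment DMSO 24 h replicate 4 and IDE196 24 h replicates 1 and 3). The differences for E2F3 (0.15 ± 0.10), E2F4 (0.11 ± 0.13) and RBL2 (-0.30 ± 0.19) were not called, nor were those for E2F7 (-0.65 ± 0.28, adjusted p = 0.0739) and E2F8 (1.09 ± 0.44, adjusted p = 0.0552).

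At 4 h, 4 of 10 members differed between the drugs, beside 24.6% of genes (10.7% higher, 14.0% lower). E2F5 (1.05 ± 0.15, adjusted p = 7.03e-06), E2F4 (0.57 ± 0.13, adjusted p = 0.00138) and E2F3 (0.36 ± 0.10, adjusted p = 0.0108) were higher under FHT-1015, and E2F2 was lower (-0.76 ± 0.24, adjusted p = 0.0190). The E2F3 call was lost with no filter on low counts (adjusted p = 0.116). The E2F2 call was lost without FHT-1015 4 h replicate 3 or, in the IDE196 experiment, without DMSO 4 h replicate 6 or IDE196 4 h replicate 2. The 2 DMSO sets of 92-1 differed for 3 of these genes at both times, where 46.1% and 45.2% of genes differed at 4 h and 24 h. At 24 h the DMSO set of the IDE196 experiment was higher for E2F2 (log2 difference 0.62 ± 0.17, adjusted p = 0.00333), lower for E2F4 (-0.54 ± 0.09, adjusted p = 2.66e-05) and lower for E2F5 (-0.30 ± 0.10, adjusted p = 0.0226). The sets and the drugs cannot be told apart by level, which is why each drug was read only against its own set.

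**Figure D4:**
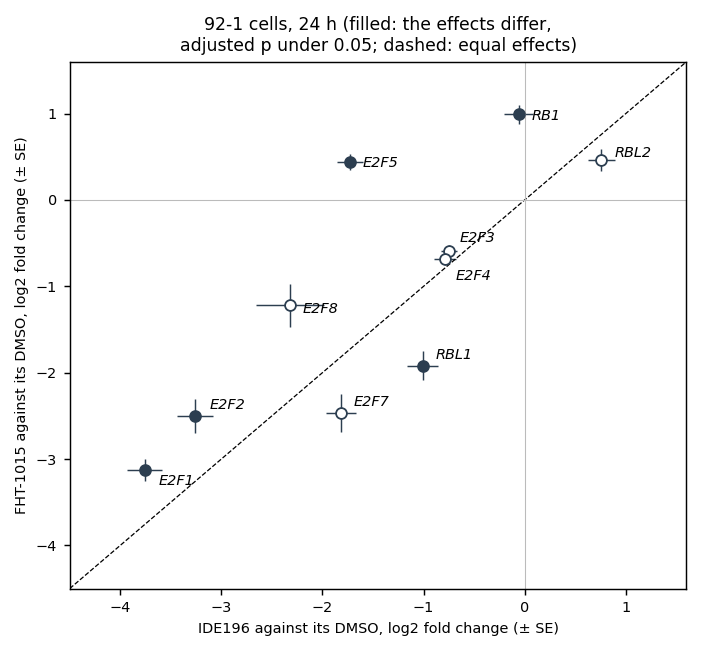
Log2 fold change at 24 h in 92-1 with FHT-1015 (vertical) against IDE196 (horizontal), each against its own DMSO, ± SE, one point per member. On these unstranded counts E2F5 lies furthest above the line of equal effects, at a difference of 2.16, with E2F8 (1.09, not called) and RB1 (1.04) next (1.05, 1.22 and 1.04 on the sum of the stranded columns), and RBL1 lies furthest below it, at -0.91.

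The FHT-1015 effect at 24 h differed among the lines for 3 of 10 members in the fit of 36 libraries, beside 12% of genes. Line and experiment cannot be told apart here either. E2F8 (edgeR adjusted p = 0.00214) fell by 2.37 in MP41 and by 1.22 in 92-1 on the log2 scale and stood at -0.66, not called, in MEL202. E2F1 (adjusted p = 0.0263) fell most in 92-1. E2F2 (adjusted p = 0.0225) stood at -2.83 in MP41, -2.50 in 92-1 and -1.60 in MEL202. The order of the first 2 rested on the libraries low in GC-poor genes, since MP41 was at -2.44 without them and both lines were at -2.44 after adjustment for GC content and length. The count depended on the fit. It was 7 with limma-voom beside 52.2% of all genes, 5 with an adjustment for GC content and length (20.9%), 6 without the 4 libraries low in GC-poor genes (13.5%) and 5 without MP41 DMSO 24 h replicate 3 (20.9%). RB1 was among the added calls in each of these 4 settings (adjusted p = 1.79e-05, 0.0314, 0.00308 and 0.0185), but the lines were not in the same order. MP41 was highest with limma-voom (1.45, beside 1.05 in 92-1 and 0.29 in MEL202) and without DMSO replicate 3 (1.84, beside 1.00 and 0.33). It was between the others after the GC and length adjustment (0.67, beside 1.04 and 0.26) and lowest without the 4 libraries (0.06, beside 1.00 and 0.34). At 4 h no member differed among lines by edgeR or by limma-voom (1.38% of genes by edgeR), and 0 had an unadjusted p under 0.05.

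The 2 DP partners of the E2Fs moved in opposite directions. TFDP1 encodes DP1, the usual DNA-binding partner, and TFDP2 encodes DP2. TFDP1 fell at 24 h by 1.24 ± 0.08 in 92-1, by 1.05 ± 0.19 in MEL202, by 1.33 ± 0.13 in MP41 and by 1.01 ± 0.09 with IDE196 on the log2 scale, each called. TFDP2 rose by 1.02 ± 0.08 in 92-1, 0.88 ± 0.16 in MP41 and 0.92 ± 0.11 with IDE196 (edgeR adjusted p = 4.34e-08, 7e-04 and 1e-06) and was not called in MEL202 (0.51 ± 0.22, adjusted p = 0.130). In 92-1 with FHT-1015 TFDP1 went from 209.6, 193.0 and 187.7 to 84.1, 83.9 and 85.5 CPM, and TFDP2 from 55.2, 59.9 and 57.9 to 123.0, 114.5 and 118.3. The groups did not overlap for either gene. E2F6, a repressor outside pocket protein control, fell in all 4 comparisons, by 0.65 to 1.09. MYBL2, which encodes B-MYB, the partner MuvB takes up in S phase, fell by 0.82 in MEL202, 1.70 in MP41, 2.31 in 92-1 and 2.37 with IDE196. Of 10 partner and MuvB genes, 1 rose and 7 fell in 92-1 with FHT-1015 and 0 rose and 3 fell in MEL202. In MP41 2 of 9 tested rose and 4 fell, and with IDE196 1 of 9 rose and 7 fell. Over all genes, 29.2% were higher and 31.4% lower in 92-1, 8.69% and 10.1% in MEL202, 17.4% and 18.7% in MP41 and 28.7% and 29.4% with IDE196. The list medians were -0.63, -0.43, -0.24 and -0.66. Without the libraries low in GC-poor genes, 2 of 10 rose and 6 fell in MP41 with a median of -0.47 (12% of all genes higher, 16.4% lower), and with GC and length offsets 2 of 9 rose and 5 fell with a median of -0.54 (25.7% and 20.8%). In MEL202, 1 rose and 5 fell without these libraries and 0 rose and 4 fell with offsets (15.6% and 16.7%, and 15.8% and 17%, over all genes). The MuvB subunit LIN54 rose in MP41 (1.36 ± 0.21, adjusted p = 0.000278, and 0.82 without the libraries low in GC-poor genes) and fell in 92-1 with FHT-1015 (-0.49 ± 0.16, adjusted p = 0.0158). It stood at -0.11 in MEL202 and -0.20 with IDE196, neither called. The MuvB subunit LIN9 fell in 92-1 with FHT-1015 (-0.80) and IDE196 (-1.23) and was not called in MEL202 (-0.39) or MP41 (0.37, and -0.51 with an adjusted p of 0.032 without the libraries low in GC-poor genes). LIN52 fell in 92-1 with both drugs (-0.77 and -0.95) and in MP41 (-0.91), and stood at -0.59, not called, in MEL202. RBBP4, the histone-binding subunit, fell in 92-1 with both drugs (-0.32 and -0.49) and was not called in MEL202 (-0.19) or MP41 (0.33). DYRK1A, the kinase that phosphorylates LIN52, fell with IDE196 (-0.23) and was not called with FHT-1015 (0.20, 0.01 and -0.24 in 92-1, MEL202 and MP41, and -0.43 with an adjusted p of 0.0411 in MP41 without these libraries). LIN37 was not called where it was tested, at 0.69 in 92-1 and -0.46 in MEL202 with FHT-1015.

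Upstream of the pocket proteins, 16 cyclins, kinases and inhibitors were listed, of which 15 were tested. At 24 h 3 rose and 9 fell in 92-1, 2 rose and 8 fell in MEL202 and 3 rose and 9 fell in MP41 with FHT-1015, and 3 rose and 8 fell with IDE196. The shares of all genes called higher and lower were 29.2% and 31.4%, 8.69% and 10.1%, 17.4% and 18.7%, and 28.7% and 29.4% in that order. The list medians were -0.78, -0.68, -1.06 and -0.39, beside -0.001, -0.006, 0.065 and 0.029 over all genes. CDK2, the kinase that works with cyclin E, fell in every line with FHT-1015. Its log2 fold change was -3.65 ± 0.13 in 92-1, -3.09 ± 0.20 in MP41 and -2.45 ± 0.25 in MEL202, beside -0.28 ± 0.09 with IDE196. The difference between the drugs in 92-1 was -3.37 ± 0.16 (edgeR adjusted p = 2.41e-15). CDKN2B, which encodes the CDK4 and CDK6 inhibitor p15, rose by 1.53 ± 0.13 in 92-1, 1.2 ± 0.23 in MEL202 and 1.77 ± 0.17 in MP41 and stood at -0.11 ± 0.18 with IDE196 (adjusted p = 0.613). Without the libraries low in GC-poor genes the MP41 values were -3.30 for CDK2 and 1.96 for CDKN2B, and the list median was -0.86. CCNE2, a cyclin E, fell by 2.24 to 2.63 in all 4 comparisons. With IDE196 the inhibitors CDKN1C (0.94 ± 0.23, adjusted p = 0.00174) and CDKN1B (0.66 ± 0.08, adjusted p = 1.23e-06) rose, and cyclin D1, CCND1, fell by 1.42 ± 0.12.

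Genes known as E2F targets at the G1/S transition fell together at 24 h. Of 28 such genes 28 fell in 92-1 with each drug and in MP41, and 26 fell in MEL202, with 0 rising, where 31.4% (92-1), 10.1% (MEL202), 18.7% (MP41) and 29.4% (IDE196) of all genes were called lower. In MEL202 28 fell with GC and length offsets and 28 without the libraries low in GC-poor genes, beside 17% and 16.7% of all genes, and in MP41 27 and 28 (20.8% and 16.4%). Their median log2 fold change was -2.20 in 92-1, -1.40 in MEL202, -1.55 in MP41 and -2.04 with IDE196, against medians of all genes between -0.006 and 0.065. Ranked by the smallest fall over the 3 lines, UHRF1 and CDC25A came first. UHRF1 stood at -2.72, -2.98 and -2.85 (92-1, MEL202, MP41) and CDC25A at -2.86, -2.62 and -2.85. MCM10 (-3.36 ± 0.15) and CDC6 (-3.18 ± 0.12), which act in replication licensing and origin firing, had the largest falls with IDE196. Genes known as DREAM targets of G2 and mitosis moved less. Of 27, 24 fell in 92-1, 1 in MEL202 and 13 in MP41 with FHT-1015 and 22 fell with IDE196, with medians of -0.83, -0.18, -0.63 and -0.86 and 0 rising, beside the same shares of all genes. The MEL202 count of 1 is thus below that line's share of 10.1%. In MP41 19 fell after adjustment for GC content and length and 23 without the libraries low in GC-poor genes, beside 20.8% and 16.4% of all genes lower. In MEL202 these counts were 3 and 2, beside 17% and 16.7%. AURKB, a mitotic kinase, was the 1 gene of that list called in each line (-1.74, -0.94 and -1.79). The lists hold textbook targets and were drawn up with earlier results of these libraries known.

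**Figure D5:**
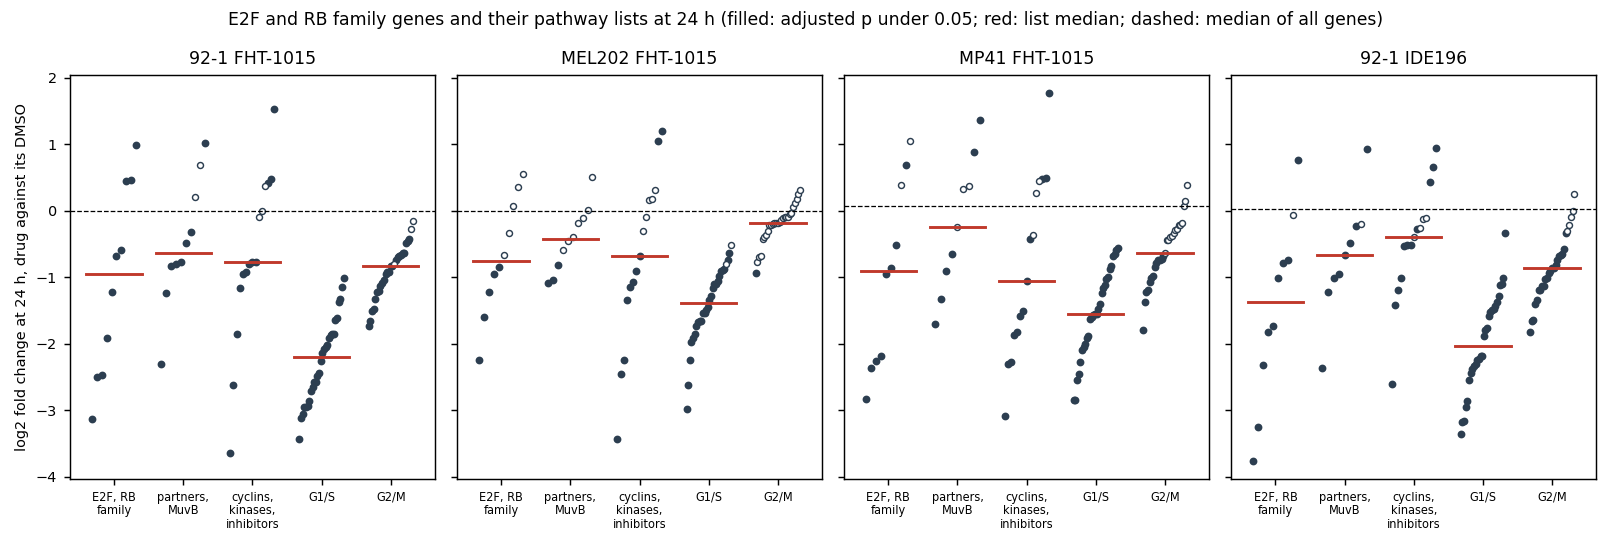
Log2 fold change at 24 h of each member and each gene of 4 pathway lists in the 4 comparisons, filled at an adjusted p under 0.05, with the list median in red and the median of all genes dashed. The G1/S genes lie between -2.20 and -1.40 by median in the 4 panels, and the G2/M genes lie between -0.86 and -0.18.

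The G1/S and G2/M lists were chosen as known E2F and DREAM targets, so their motif letters were partly set by that choice. They are given as description only. The E2F pattern was in 13 of 24 G1/S promoters, in 3 of 21 G2/M promoters and in 0 of 11 promoters of the cyclin, kinase and inhibitor list that were in the table. Beside 3.31% of all promoters, 0 of 11 shows little. The letters TTTGAA, the core of the CHR element that MuvB recognises, were in 14 of 21 G2/M promoters and 1 of 24 G1/S promoters, against 15.2% of all promoters.

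Over the 16 group means, each taken minus the mean of its experiment, E2F1 and E2F2 followed each other closely (Pearson r = 0.967), as did E2F2 and E2F8 (0.961) and E2F7 and RBL1 (0.957). Among 10494 protein-coding genes the closest to E2F1 were STIP1 (0.994) and MCM6 (0.992), and the closest to RBL1 was PCLAF (0.987). E2F2 was closest to CHAF1A (0.983), E2F3 to NAF1 (0.980), E2F4 to WDR5 (0.993), E2F7 to RFWD3 (0.984) and E2F8 to DGCR8 (0.962). E2F8 itself was below the mean of 5 CPM set for the 10494 genes. E2F5 stood apart from its family, with E2F3 as its closest member at 0.432 and LUC7L (0.915) and SPRY2 (0.897) as the closest genes. RB1 and RBL2 were closest to each other among the members, at 0.485, and RBL2 ran against E2F3 (-0.863). These are descriptions over 16 means that share lines and treatments, and the MP41 DMSO mean at 24 h and both MEL202 means at 4 h include libraries low in GC-poor genes.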

How the data were processed

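RNA-seq counts per gene were deposited by the authors for 48 samples, as unstranded and 2 stranded columns in the layout of STAR gene counts. The submitters' processing notes name hg38 and limma, and the aligner version and annotation are not given in the sources used here. Per the labels' protocols, mRNA was purified with poly-T beads and made into libraries with a kit that does not mark strand, so the unstranded counts were used. Reads overlapping more than 1 gene are counted for none of them, and these were 9.35 to 11.83% of reads. Symbols and coordinates came from GENCODE 29, in which 58597 of the 58870 gene IDs matched.

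Each experiment (12 samples, 4 groups) was fitted with edgeR 4.0.16 (R 4.3.3), TMM normalisation, filterByExpr and the quasi-likelihood test, with Benjamini-Hochberg adjustment over all genes and a threshold of 0.05. All 10 members passed the filter in every fit. Lines were compared in 36 samples and drugs in 24. Printed CPM use TMM over the 48 samples together, while each test used its own normalisation. The SE printed is the size of the log2 fold change over the root of its F statistic.

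Members and lists were chosen with earlier results of these data known. Every member and partner is named, and of each other list up to 2 genes per direction, those called alike in all 3 lines and ranked by their smallest change, and those with the largest change under IDE196. CDK2, CDKN2B, CDKN1B, CCND1 and LIN54 values in further comparisons are given beside these. Same-numbered replicates deviated together (r over 0.1) in 7 of 18 pairs, and the number was not treated as pairing in the main fits. The own number was still the best match of 3 in 12 of the 18, and each time in MP41. Whether the number marks pairs was therefore not settled. Alternatives were RLE, no filter, DESeq2 1.42.0, limma 3.58.1 voom with quality weights, the stranded sum, only the 6 samples compared, a replicate block and leaving out each library. Offsets for GC content and length, and leaving out the 4 libraries low in GC-poor genes, were chosen after seeing the data. On simulated data with 200 genes changed 2-fold at 24 h, the test recovered 78.9% in 92-1 (15282 genes), 6.2% in MEL202 (15577), 31.1% in MP41 (15196) and 76.8% with IDE196 (15093). Far fewer genes changed there than were called in the data (18.8% to 60.6%), so the adjustment was stricter. Genes were also drawn independently, without a shift shared by GC-poor genes. The rates are therefore not those of the reported tests. No replicate pair agreed within sampling noise.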

Additional observations from a re-analysis of the deposited data

Results flagged for a closer look

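The effect of a drug at 24 h differed from its effect at 4 h for 24 combinations of member and experiment, tested as the 24 h log2 fold change minus the 4 h one (edgeR quasi-likelihood test, adjusted p under 0.05). In 92-1 with FHT-1015 the differences were -2.76 for E2F1, -1.74 for E2F2, -0.66 for E2F3, -0.97 for E2F4, -1.86 for E2F7, 1.46 for RB1 and -1.69 for RBL1, 7 of 10 members beside 45.5% of all genes. In MEL202 they were -2.08 for E2F1 and -1.17 for E2F4, 2 of 10 beside 6.89% of genes. In MP41 they were -2.27 for E2F1, -2.47 for E2F2, -1.20 for E2F4, -2.07 for E2F7, -2.21 for E2F8 and 1.09 for RBL2, 6 of 10 beside 18.6% of genes. With IDE196 they were -3.51 for E2F1, -3.25 for E2F2, -0.45 for E2F3, -0.51 for E2F4, -0.91 for E2F5, -1.72 for E2F7, -2.13 for E2F8, -1.28 for RBL1 and 0.58 for RBL2, 9 of 10 beside 30.7% of genes. E2F1 and E2F4 were among the members in each experiment.

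The call for E2F4 in MEL202 was lost when any of 8 of the 12 libraries was left out, those other than DMSO 4 h replicates 1 and 3, DMSO 24 h replicate 2 and FHT-1015 4 h replicate 2. The call for RBL2 in MP41 was lost without DMSO 4 h replicate 2 or 3, FHT-1015 4 h replicate 2 or FHT-1015 24 h replicate 3, and its adjusted p without FHT-1015 24 h replicate 1 was 0.05 to 3 digits. The call for RBL2 with IDE196 was lost without DMSO 4 h replicate 4, DMSO 24 h replicate 5, IDE196 4 h replicate 2 or 3 or IDE196 24 h replicate 3. The call for E2F5 with IDE196 was lost on the sum of the stranded columns (-0.19, adjusted p = 0.321), which also counts reads of bases shared with other genes.

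The FHT-1015 effect at 24 h differed among the 3 lines for E2F1 (edgeR adjusted p = 0.0263), E2F2 (0.0225) and E2F8 (0.00214). The call for E2F1 was lost without 92-1 DMSO 24 h replicate 1 or 92-1 FHT-1015 24 h replicate 2 or 3. The call for E2F2 was lost without MEL202 DMSO 24 h replicate 1 or 3, MEL202 FHT-1015 24 h replicate 3, MP41 DMSO 24 h replicate 2 or MP41 FHT-1015 24 h replicate 2. E2F8 was called in every such fit.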

How the results depend on the processing

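Over the 8 comparisons of a drug with DMSO, 314 alternatives of called member values gave 5 lost calls and 0 reversals, and 346 of uncalled values gave 17 gained calls and 8 reversals. Leaving out 1 library gave 23 lost calls and 0 reversals of 468, and 2 gained and 13 reversed of 492 uncalled. The number of members called moved by over 1.5 times in these cases. With limma-voom it was 8 in MEL202 at 24 h (5 in the report), beside 55.5% of all genes (18.8%), 5 for the difference between times in MEL202 (2), beside 16% (6.89%), and 7 among lines at 24 h (3), beside 52.2% (12%). With GC and length offsets it was 5 for MEL202 times (19.3% of genes) and 5 among lines (20.9%), and without the 4 libraries low in GC-poor genes 4 (12.9%) and 6 (13.5%). With only the 6 samples compared it was 5 in MP41 at 24 h (8), beside 22.2% (36.1%), where fewer samples estimate the spread. Signs that reversed were those of uncalled values. They were RB1 in MEL202 at 4 h (0.03, limma-voom), E2F5 in MEL202 at 24 h (-0.10 on the stranded sum, -0.02 with offsets), E2F1 in MP41 at 4 h (-0.02 with offsets) and E2F5 in MP41 at 24 h (-0.04 with offsets, -0.06 without the 4 libraries) and between its times (-0.37 and -0.32), and E2F2 with IDE196 at 4 h (0.08 with limma-voom, 0.01 with offsets). Where no construction is named, the cause was not tested.

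Leaving out each library gave 3 to 5 members in 92-1 at 4 h (3 without DMSO 4 h replicate 2), 3 to 5 in MEL202 at 24 h (3 without DMSO 24 h replicate 1, FHT-1015 24 h replicate 1 or 3), 1 to 3 between MEL202 times (1 without DMSO 24 h replicate 1 or 3 or any FHT-1015 24 h replicate), 1 to 2 with IDE196 at 4 h (1 without IDE196 4 h replicate 3), 2 to 5 among lines at 24 h and 3 to 6 between drugs at 24 h (3 without DMSO 24 h replicate 4 or IDE196 24 h replicate 3 of the IDE196 experiment). These counts have no share of all genes beside them. It was computed only among lines without MP41 DMSO 24 h replicate 3 (20.9%). Uncalled values that crossed 0 in MEL202 at 4 h ranged from -0.34 to 0.03 for E2F7, -0.48 to 0.06 for E2F8, -0.50 to 0.23 for RB1, -0.08 to 0.45 for RBL1 and -0.11 to 0.35 for RBL2. Others were E2F5 in MEL202 at 24 h (-0.01 to 0.13) and between MP41 times (-0.04 to 0.34), E2F2 with IDE196 at 4 h (-0.16 to 0.13), RB1 with IDE196 at 24 h (-0.12 to 0.01) and E2F1 between drugs at 4 h (-0.27 to 0.01). With the replicate number as a block, E2F5 in 92-1 at 4 h (0.23, adjusted p = 0.0451) and RB1 in MP41 at 24 h (1.36, adjusted p = 0.0106) were gained and RBL1 in MEL202 at 24 h (-0.95, adjusted p = 0.0776) was lost, and the block changed no other call. In 12 of 18 comparisons of same-numbered libraries the own number matched best of 3, in MP41 each time. No paired analysis was possible for IDE196 because its arms share no replicate numbers. E2F8 had the fewest reads in 92-1 and MEL202, at 0.417 to 5.37 CPM.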
